A study of Mus musculus with 9 samples.

Results

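Ears of wild-type C57BL/6 mice that had received DNA for interleukin 23 (IL-23) were compared with ears of wild-type mice that had received DNA for green fluorescent protein (GFP). The comparison rests on 6 of the 9 libraries of the series, 3 with IL-23 DNA and 3 with GFP DNA, all of them 3' tag RNA-Seq, which reads each transcript close to its 3' terminus. The members are all expressed genes: 13807 of the 54838 genes in the count tables had enough counts to be tested. The other 3 libraries came from Mdl-1-/- mice, which lack the myeloid receptor MDL-1, with IL-23 DNA. They are not compared here, but they entered the filter on low counts and the estimate of the spread between libraries. With the 6 wild-type libraries alone 13433 genes were tested.

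Mice of both wild-type groups were 10 weeks old and received 15 µg of minicircle DNA, a small circle without a bacterial backbone, pushed into the tail vein in a large volume (hydrodynamic injection). This route is known to deliver DNA mainly to the liver. All ears of the series therefore came from injected mice, and how long after injection they were taken is not stated in the sources used here. The labels number the libraries of a group 1 to 3 and do not say that each came from a separate animal. The p-values then measure the spread between these libraries, which may be technical.

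IL-23 is a dimer of a p19 subunit (Il23a) and a p40 subunit (Il12b) and acts on lymphoid cells that carry its receptor. These cells answer with IL-17A, IL-17F and IL-22, which act in turn on keratinocytes, the main cells of the epidermis. Keratinocytes so stimulated are known to make neutrophil-attracting chemokines and antimicrobial proteins and to thicken the epidermis, as in psoriasis.

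Each library held between 3776188 and 5605713 counts, at which depth a count of 0 allows a level of up to 0.535 to 0.794 CPM (counts scaled to the library total), for counting error only. The labels state 600000 reads per sample, and the totals were 6.29 to 9.34 times that number. Why they differ was not tested. On the first principal component, which carried 77.4% of the variance, the GFP libraries lay at -69.1, -47.1 and -70.6 and the IL-23 libraries at 47.1, 59.2 and 80.4. GFP library 2 was thus the control closest to the IL-23 group, and IL-23 library 3 the farthest from the controls. The tissue matched its label: epidermal Krt14 (3275 to 5329 CPM in the GFP libraries), dermal Dcn (209 to 253 CPM), fat-cell Adipoq (28.5 to 66.5 CPM) and cartilage Acan (14.3 to 32.6 CPM) were all present. Cartilage Col2a1 was near the limit, with 32 counts over the GFP libraries and 14 over the IL-23 libraries. Liver transcripts were close to absent, with 3 and 0 counts of Alb and 5 and 0 counts of Ttr over the 3 GFP and the 3 IL-23 libraries.

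Values below are CPM scaled by the trimmed mean of M-values (TMM), listed for libraries 1, 2 and 3 of each group, and changes are log2 fold changes, IL-23 over GFP, ± SE with 3 libraries a group. A gene was called changed at an adjusted p under 0.05 (edgeR quasi-likelihood test, Benjamini-Hochberg adjustment over all 13807 genes), and only called genes are said to have risen or fallen. Among all tested genes 22.9% were called higher and 21.7% lower, 44.7% in all, 42.6% were called and had no overlap between the groups, and the median log2 fold change was -0.04. These shares are the background against which each group of genes is to be read. With libraries scaled by their totals alone, the median gene shifts by -0.40 on the log2 scale. The TMM factors were 1.15 to 1.18 in the GFP libraries and 0.804 to 0.931 in the IL-23 libraries. The direction of small changes depends on this choice, which is said where it matters.

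The 3167 genes called higher and the 3002 called lower differed in how far they moved. At least 10-fold higher were 185 genes (1.34% of those tested), and at least 10-fold lower were 44 (0.319%). The 185 genes held 0.237%, 0.303% and 0.201% of the counts of the GFP libraries and 9.65%, 12% and 16.3% of those of the IL-23 libraries. The 1764 genes that fell at least 2-fold went from a mean of 8.73% ± 0.799 to 2.31% ± 0.603 of the counts (SD, n = 3). IL-23 library 3 had the highest value of 159 of the 185 steepest risers (85.9%), against 34.9% of the genes that were not called. Leaving out each library in turn gave between 4622 and 6352 calls in place of 6169.

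**Figure D1:**
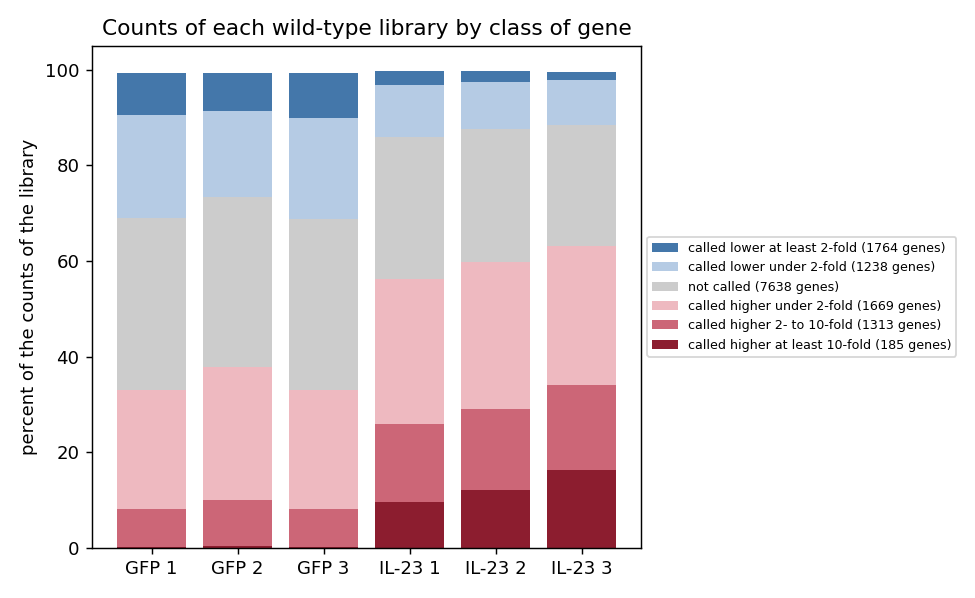
Percent of the counts of each wild-type library (y axis) held by genes grouped by their call and fold, with the number of genes of each class in the legend; bars stop short of 100 because untested genes are left out. The darkest class, genes called at least 10-fold higher, is a thin line in the GFP libraries (0.201% to 0.303%) and takes 9.65% to 16.3% in the IL-23 libraries.

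**Figure D2:**
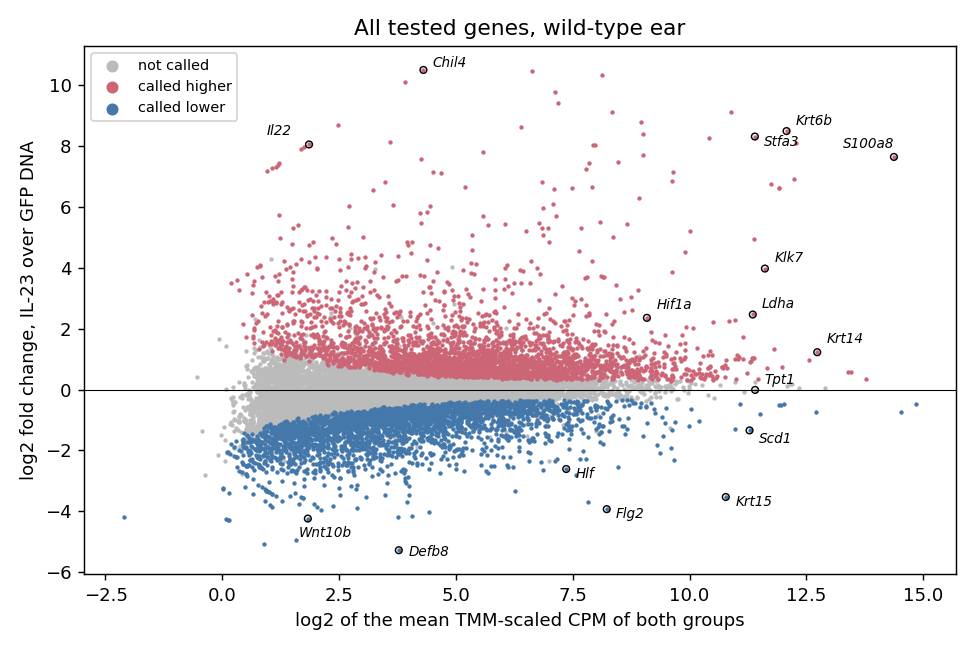
Log2 fold change of every tested gene (y axis) against the log2 of its mean CPM over both groups (x axis), with called genes coloured and some genes of the text circled. Genes without a count in the GFP libraries, such as Chil4, sit at fitted values that depend on the prior count and are no measured folds. The lowest circled gene, Defb8, lies at -5.28, and S100a8 combines a change of 7.65 with a very high level.

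Genes of the outer skin led the rises and were also among the falls. Among the 15 genes with the largest rise at a mean of 20 CPM or more in the higher group, 7 were Sprr2 or Lce3 genes. These families code for small proteins that are cross-linked into the envelope of dying keratinocytes, but Sprr2g is annotated as a polymorphic pseudogene. The other genes of the 15 were the chitinase-like gene Chil4, the anion exchanger Slc26a4, the urate oxidase gene Uox, keratin Krt6b, the cysteine protease inhibitors BC117090, Stfa3 and Stfa1, and the chemokine Cxcl5. Chil4 stood at 0 counts in the controls and at 8.71, 21.5 and 88.3 CPM in the IL-23 libraries (adjusted p = 0.0202). Taking 3 counts for the controls together, it was at least 198-fold higher. Its call was lost with the 6 wild-type libraries alone (adjusted p = 0.0874) and without a count filter (0.0523). The 15 largest falls included Krt15, a keratin of basal and hair-bulge keratinocytes, and Flg2, a filaggrin-type barrier protein. They also held Defb8, a beta-defensin, Slc6a2, the noradrenaline transporter, and Ccn2, a matricellular protein. The wild-type libraries do not overlap in any of these 30 genes, which the choice required.

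The sequences around the start sites of the leading genes are shown because genes that move together this far are often read for shared control elements. They cover 250 bases before and 50 after the start, come from RefSeq (GRCm38.p6), and belong to the first 3 risers and first 3 fallers with an entry. Sprr2g, the third riser, had none, so Slc26a4 takes its place. Each runs 5' to 3' on the strand of its gene. Capitals mark matches to TTCNNNGAA (bound by STAT factors), GGGNNTTCC or the form longer by 1 N (NF-kB) or TGANTCA (AP-1), searched on both strands.
Chil4, chr3:106219430-106219729, minus strand: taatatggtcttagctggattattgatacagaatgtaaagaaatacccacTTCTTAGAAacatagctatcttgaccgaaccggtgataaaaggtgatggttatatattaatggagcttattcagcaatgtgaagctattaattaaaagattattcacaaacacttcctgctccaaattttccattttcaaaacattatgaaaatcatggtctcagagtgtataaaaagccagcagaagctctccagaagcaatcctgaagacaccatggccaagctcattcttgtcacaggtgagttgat
Lce3b, chr3:92932729-92933028, plus strand: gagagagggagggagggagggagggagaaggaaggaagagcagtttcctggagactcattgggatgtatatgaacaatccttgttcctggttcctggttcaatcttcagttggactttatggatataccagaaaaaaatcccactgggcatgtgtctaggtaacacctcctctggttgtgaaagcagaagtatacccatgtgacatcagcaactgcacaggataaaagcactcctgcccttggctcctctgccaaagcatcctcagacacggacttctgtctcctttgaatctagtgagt
Slc26a4, chr12:31559935-31560234, minus strand: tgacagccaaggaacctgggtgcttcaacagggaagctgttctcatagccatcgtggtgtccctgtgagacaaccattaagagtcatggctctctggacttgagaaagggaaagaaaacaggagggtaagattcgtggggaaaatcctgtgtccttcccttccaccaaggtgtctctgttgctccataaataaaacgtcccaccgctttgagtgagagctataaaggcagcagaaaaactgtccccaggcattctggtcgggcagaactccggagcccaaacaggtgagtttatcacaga
Defb8, chr8:19447557-19447856, minus strand: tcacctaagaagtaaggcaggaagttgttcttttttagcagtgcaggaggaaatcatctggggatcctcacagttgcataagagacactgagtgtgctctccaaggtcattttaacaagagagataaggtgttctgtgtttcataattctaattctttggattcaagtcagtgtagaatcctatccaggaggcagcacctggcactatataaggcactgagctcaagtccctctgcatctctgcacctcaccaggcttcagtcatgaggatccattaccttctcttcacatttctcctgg
Fmo2, chr1:162898709-162899008, minus strand: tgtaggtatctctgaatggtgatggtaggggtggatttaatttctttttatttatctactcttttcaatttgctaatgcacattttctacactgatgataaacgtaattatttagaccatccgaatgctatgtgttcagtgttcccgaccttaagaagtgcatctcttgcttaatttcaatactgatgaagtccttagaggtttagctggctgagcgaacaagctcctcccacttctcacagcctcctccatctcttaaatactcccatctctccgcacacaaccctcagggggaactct
Flg2, chr3:93197023-93197322, plus strand: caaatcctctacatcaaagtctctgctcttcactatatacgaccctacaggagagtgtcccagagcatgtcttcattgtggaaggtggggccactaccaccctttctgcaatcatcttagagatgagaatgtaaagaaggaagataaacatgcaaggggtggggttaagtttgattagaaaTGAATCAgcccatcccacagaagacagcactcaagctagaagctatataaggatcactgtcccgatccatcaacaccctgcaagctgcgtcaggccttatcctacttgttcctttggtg
The Chil4 window held 1 STAT match and the Flg2 window 1 AP-1 match, and the other 4 windows held none of these letters. A STAT match was present in 8.47% of all 27025 promoters of the table, in 6.79% of the 9521 promoters of tested genes and in 8.76% of 137 promoters of genes called at least 10-fold higher. For AP-1 the shares were 7.93%, 5.39% and 13.9%, the last being 19 of 137 promoters, among which families such as Sprr2 share sequence. In the same order the shares were 5.72%, 7.28% and 5.11% for the shorter NF-kB form. For the longer NF-kB form they were 5.52%, 6.17% and 5.11%. Both NF-kB forms were thus less frequent among the genes at least 10-fold higher than among tested genes. For the 33 promoters of genes at least 10-fold lower the AP-1 share was 9.09% and the STAT share 6.06%. The NF-kB shares there were 3.03% for the shorter and 6.06% for the longer form. A match is a description of the letters, not a binding site, and no test was made of these shares.

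S100a8 had the largest gain in CPM of any called gene. It codes for 1 chain of calprotectin, a zinc- and calcium-binding antimicrobial dimer made by neutrophils and stimulated keratinocytes, and lies on chr3:90668978-90670035 (GRCm38). S100a8 stood at 241, 255 and 137 CPM with GFP DNA and at 28035, 38663 and 59962 CPM with IL-23 DNA (7.65 ± 0.75, adjusted p = 0.000326). Its partner S100a9 went from 91.4, 83.2 and 63.1 to 6794, 7811 and 14183 CPM (6.92 ± 0.62, adjusted p = 0.000178). IL-23 library 3 was the highest in both, and no IL-23 library came near the controls. S100a7a, the mouse relative of psoriasin, was nearly silent in the controls (0.522, 0 and 0.464 CPM) and reached 32.1, 45.5 and 76.4 CPM. Of the 12 tested S100 genes 6 rose and 2 fell, with a median of 0.45. The rise among the others was mild, as in S100a16 (1.10 ± 0.13). The falls of S100a10 (-0.63 ± 0.17) and S100a1 (-0.46 ± 0.17) lost their calls without IL-23 library 2. The call of S100a1 was also lost without GFP library 2 or 3 or IL-23 library 3. It was lost too with DESeq2 (adjusted p = 0.0677) and in the edgeR fit of the 6 wild-type libraries alone (adjusted p = 0.0576). Together the S100 genes made up 0.216% ± 0.0171 of the counts with GFP DNA and 4.63% ± 1.36 with IL-23 DNA (SD, n = 3, exact permutation test, two-sided, p = 0.1, the smallest that 3 against 3 libraries allow).

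The envelope precursors were changed as a whole family. All 19 tested Sprr and Lce3 genes rose, with a median of 7.25 when Sprr2k, which had no count in the GFP libraries, is set at its lower bound. Lce3b went from 0, 0.184 and 0.155 CPM to 153, 177 and 262 CPM, and as the controls held 2 counts in all, the ratio is best given as 1676 with an exact 95% interval of 463 to 13844. Sprr2d, among the most abundant, stood at 7.13, 9.92 and 3.4 CPM and then at 2616, 2996 and 5646 CPM (9.12 ± 0.75, adjusted p = 0.000119). In both genes every IL-23 library was far above every control. The mildest change of the family was that of Sprr1a, from 2.96, 9 and 6.65 to 185, 199 and 350 CPM (5.30 ± 0.40, adjusted p = 8.91e-06). Sprr2a1, Sprr2a2 and Sprr2a3 gave nearly the same values in each library, up to 8924, 8947 and 8046 CPM in IL-23 library 3. They are close copies whose reads the counting may have shared, so their single levels are uncertain. The settings for multi-mapping are not stated, and reads counted once for each copy would also raise the share of the family. The same holds for the share of the genes called at least 10-fold higher, to which these copies belong. The family made up 0.031% ± 0.0163 of the counts with GFP DNA and 2.78% ± 0.526 with IL-23 DNA (SD, n = 3, exact permutation p = 0.1).

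The Lce1 and filaggrin-type genes, which code for the later and more regular products of the granular layer, moved unevenly. Of 23 tested genes 7 rose and 2 fell, with a median of 1.11. With DESeq2, or with dispersions fitted without robustness, 13 rose. Repetin (Rptn), an envelope protein, went from 2.26, 4.77 and 4.64 to 329, 553 and 1231 CPM (7.48 ± 0.83, adjusted p = 0.000522). Cornifelin (Cnfn) rose by a log2 of 4.14 ± 0.24, hornerin (Hrnr) by 1.62 ± 0.21 and filaggrin (Flg) by 1.52 ± 0.45. Loricrin (Lor), the main envelope protein of normal epidermis, was not called (1, adjusted p = 0.278). Flg2 went the other way, from 326, 666 and 696 to 79.3, 21.9 and 7.6 CPM (-3.93 ± 1.03, adjusted p = 0.0227). Its call was lost without GFP library 3, IL-23 library 2 or IL-23 library 3, with adjusted p between 0.0574 and 0.081, although the groups did not overlap.

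Stress keratins, which keratinocytes make in wounds and in psoriasis, all rose. Krt6b stood at 26.5, 28.6 and 16.6 CPM in the controls and at 7242, 5997 and 12571 CPM with IL-23 DNA (8.5 ± 0.7, adjusted p = 0.000119). Krt16, the partner of the Krt6 keratins, went from 12.4, 15.1 and 6.34 to 1322, 1433 and 2018 CPM (7.15 ± 0.55, adjusted p = 4.89e-05). Krt6a rose by 4.96 ± 0.68 and Krt17 by 3.68 ± 0.22. Together the 4 took up 0.027% ± 0.0082 and then 1.36% ± 0.367 of the counts (SD, n = 3, exact permutation p = 0.1).

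The keratins of normal epidermis moved unevenly. Krt1, the type II keratin of the suprabasal layers, went from 51.5, 90.7 and 99.3 to 1783, 1815 and 1906 CPM (4.51 ± 0.35, adjusted p = 1.57e-05). Its pairing partner Krt10 went from 2153, 2921 and 4005 to 5528, 5278 and 4312 CPM (0.74 ± 0.19, adjusted p = 0.00648). Basal Krt14 went from 3602, 5329 and 3275 to 9868, 8258 and 10466 CPM (1.23 ± 0.18, adjusted p = 0.000102), while its partner Krt5 was not called (-0.27, adjusted p = 0.393). Krt15, which is also basal, lost most of its level, from 2710, 3508 and 3456 to 363, 326 and 150 CPM (-3.53 ± 0.49, adjusted p = 0.00114). Of the 11 keratins in this list 6 rose and 1 fell, with a median of 0.74, and 2 rose when libraries were scaled by their totals.

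Enzymes and inhibitors of cornification, the process that turns a keratinocyte into a horny scale, rose nearly without exception: 25 of 27, none lower, with a median of 2.99. Klk7, a kallikrein protease that cuts the links between scales, went from 237, 505 and 374 to 3624, 5639 and 8397 CPM (3.98 ± 0.40, adjusted p = 0.000135). Klk6 rose from 4, 5.51 and 5.1 to 700, 916 and 1451 CPM (7.70 ± 0.40, adjusted p = 1e-06), and Klk13 by a log2 of 6.65 ± 0.56. Proteases and their inhibitors moved together. The stefin Stfa3, an inhibitor of cysteine cathepsins, went from 17.6, 21.7 and 11.3 to 2537, 5203 and 8383 CPM (8.32 ± 0.93, adjusted p = 0.000618), and its relative BC100530 from 40.5, 40.8 and 26.1 to 5487, 9037 and 14963 CPM. The stefins form a cluster of close copies on chromosome 16, so their levels may be shared among members. The kallikrein inhibitor Spink5 rose by 1.13 ± 0.15, caspase Casp14 by 4.01 ± 0.32 and transglutaminase Tgm3 by 1.47 ± 0.22. Serpinb5 and Tgm5 were not called.

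Regulators of keratinocyte fate moved in both directions. Among 27 transcription factors 13 rose and 5 fell, with a median of 0.34 that becomes -0.05 when libraries are scaled by their totals. Grhl3, which drives barrier formation, went from 5.22, 5.51 and 4.64 to 22.7, 32.8 and 51.2 CPM (2.78 ± 0.28, adjusted p = 3.53e-06). Ovol1 rose by 2.54 ± 0.27, Ehf by 2.44 ± 0.31, and Cebpb by 1.54 ± 0.19. The factors that fell include Sox9, of hair follicle and cartilage (-1.32 ± 0.17), the Notch target Hes1 (-1.30 ± 0.22) and Maf (-1.28 ± 0.19). Trp63, the master factor of stratified epithelium, was not called (-0.14, adjusted p = 0.4).

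Genes of contacts between cells were mostly higher, and those of contact with the basement membrane lower or not called. Of 23 junction genes 15 rose and 2 fell, with a median of 0.83. The connexin Gjb6 went from 1.74, 4.77 and 4.18 to 176, 172 and 336 CPM (5.98 ± 0.41, adjusted p = 4.3e-06), and Gjb2, its partner in skin, from 9.05, 12.9 and 8.2 to 281, 274 and 632 CPM (5.30 ± 0.48, adjusted p = 8.4e-05). Connexins form gap junctions, and these were the largest rises of the list. Desmoplakin (Dsp), the plaque protein of desmosomes, rose by 1.35 ± 0.18 and E-cadherin (Cdh1) by 0.69 ± 0.13. Of 16 hemidesmosome and basement membrane genes none rose and 7 fell, with a median of -0.68, and 11 fell without IL-23 library 1. Col17a1, which anchors basal cells, went from 365, 341 and 396 to 120, 55.6 and 49.6 CPM (-2.28 ± 0.28, adjusted p = 0.000101). Dystonin (Dst) fell by 1.82 on the log2 scale and laminin Lama5 by 1.26, while integrins Itga6 and Itgb4 were not called.

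Growth factors of the EGF family, which act on keratinocytes through the EGF receptor, were higher for most ligands. Epgn (epigen) went from 4.87, 3.31 and 1.55 to 82.7, 50.4 and 102 CPM (4.6 ± 0.41, adjusted p = 1.45e-05). Areg (amphiregulin) rose by 4.30 ± 0.59, Hbegf by 3.07 ± 0.31, Tgfa by 3.02 ± 0.29 and Ereg by 1.55 ± 0.30. The ligands that fell were Btc (-1.87 ± 0.53) and Egf (-1.27 ± 0.5), the former with no call without IL-23 library 1 or 2. The receptor gene Egfr was not called (0.13, adjusted p = 0.541). In all, 9 of 12 genes rose and 2 fell. Mitotic genes rose in 13 of 26 and fell in none, with a median of 0.50. The survivin gene Birc5 went from 133, 153 and 113 to 423, 351 and 322 CPM (1.46 ± 0.18, adjusted p = 1.42e-05), and the mitotic kinase Plk1 rose by 1.55 ± 0.20. The proliferation marker Mki67 was not called (0.25, adjusted p = 0.288). Scaled by library totals, 8 mitotic genes rose.

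**Figure D3:**
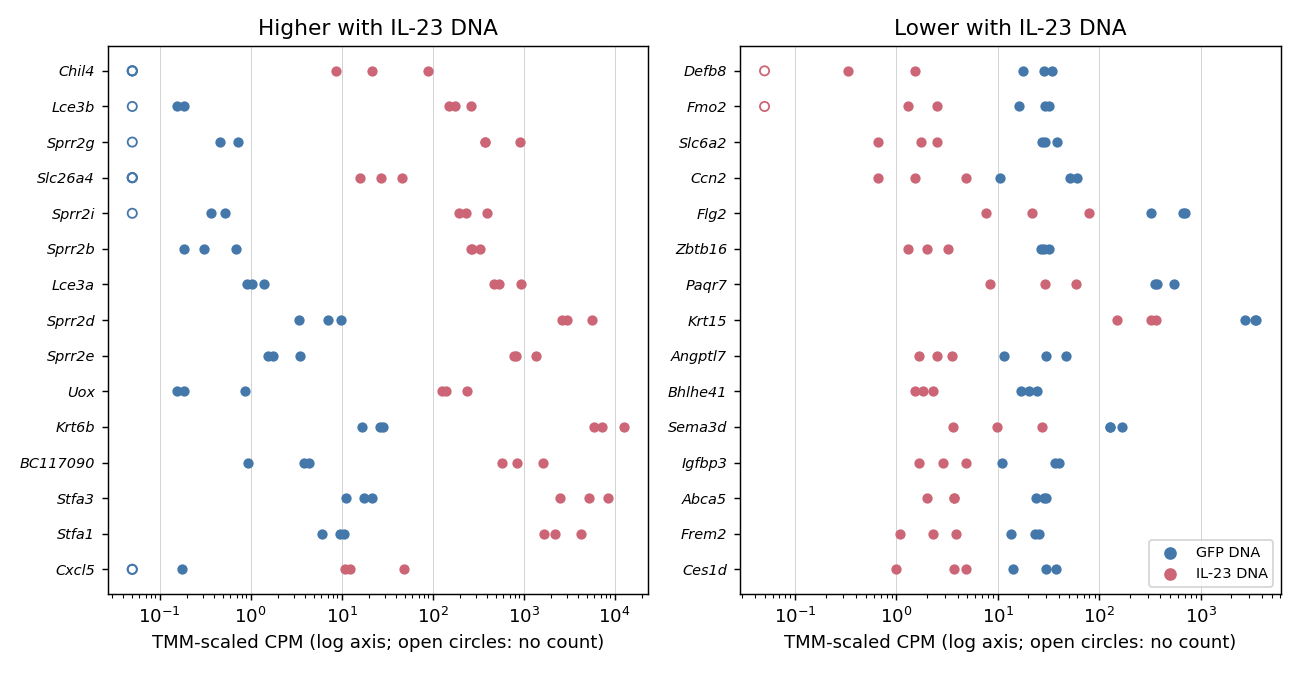
CPM in each library (x axis, logarithmic) of the 15 genes with the largest rise (left) and the 15 with the largest fall (right); open circles at the left edge mark libraries with no count. In every gene the 3 IL-23 libraries lie on 1 side of the 3 GFP libraries. The spread among IL-23 libraries is wide for Chil4 (8.71 to 88.3 CPM) and Flg2 (7.6 to 79.3 CPM).

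The cytokines at the head of this axis were rare in ear RNA. Il23a gave 3 counts over the GFP and 4 over the IL-23 libraries, Il12b 3 and 6, and the receptor gene Il23r 4 and 4. Il17a gave 0 counts in the controls and 6, 0 and 4 counts in the IL-23 libraries, and Il17f 0 and then 1, 1 and 3. At this depth no change of these genes could be tested. Il22, which drives keratinocyte growth and antimicrobial genes, was read well enough: it had no count in the controls and reached 6.42, 3.72 and 11.6 CPM in the IL-23 libraries. This is at least 39.4-fold higher, taking 3 counts over the group as the limit (adjusted p = 0.000156). Il19, an IL-10 family cytokine made by keratinocytes, went from 11.7, 2.94 and 0 to 211, 125 and 192 CPM (5.2 ± 0.92, adjusted p = 0.00459). Its relatives Il20 (16 and 6 counts) and Il24 (0 and 7 counts) were too low to test.

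Receptors moved both up and down. Among 13 tested genes of the type 17 and type 22 list 6 rose and 3 fell, with a median of 0.53. The shared chain Il10rb, used by IL-22 among others, went from 19.8, 30.5 and 21.7 to 51.8, 78.4 and 100 CPM (1.67 ± 0.22, adjusted p = 4.06e-05). Il17ra rose by 0.86 ± 0.20 and its partner Il17rc by 0.99 ± 0.22. Ccr6, the homing receptor of type 17 cells, went from 0.522, 0.184 and 0.155 to 3.67, 4.38 and 4.96 CPM (3.80 ± 0.55, adjusted p = 6.04e-05). Il20ra fell, from 8.53, 4.77 and 11.8 to 1.6, 0.876 and 1.32 CPM (-2.72 ± 0.44, adjusted p = 0.000165).

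Among IL-1 and IL-36 family genes 11 of 16 rose and 1 fell, with a median of 1.46. The IL-36 genes Il1f6, Il1f8 and Il1f9, which are epithelial cytokines, rose by 3.82 ± 0.33, 2.71 ± 0.28 and 3.70 ± 0.27. Il1f9 (IL-36 gamma), for example, stood at 38.1, 54.2 and 28.8 and then at 388, 502 and 681 CPM. Their antagonists rose too, Il1f5 by 2.01 ± 0.18 and the IL-1 receptor antagonist Il1rn by 2.46 ± 0.20. Il1b went from 3.65, 47.6 and 72.1 to 429, 553 and 617 CPM (3.69 ± 1.11, adjusted p = 0.0366), with GFP library 1 far below the other 2 controls. Il33, an alarmin, was the member that fell (-0.70 ± 0.24, adjusted p = 0.0331), a call lost without any of 4 of the 6 libraries.

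Of the signalling genes below these receptors, those of NF-kB were mostly higher and the others in part. Of 16 NF-kB subunits and feedback genes 13 rose and none fell, with a median of 1.08. Nfkbia, the inhibitor that NF-kB induces, went from 494, 376 and 356 to 1442, 1364 and 1468 CPM (1.80 ± 0.16, adjusted p = 1.1e-06). Nfkbiz, the cofactor of IL-17 target genes, rose by 1.81 ± 0.29, and Zc3h12a, an RNase that limits IL-17 signalling, by 2.44 ± 0.50. Of 15 genes of the IL-6 family, STAT3 and SOCS list 8 rose and 2 fell, and 5 rose without GFP library 3 or IL-23 library 3. Stat3 went from 270, 216 and 200 to 603, 686 and 685 CPM (1.53 ± 0.17, adjusted p = 6.93e-06), and Socs3, its feedback inhibitor, rose by 1.27 ± 0.37. The oncostatin M receptor Osmr rose by 1.59 ± 0.36 while Lifr (-1.63 ± 0.21) and Il6ra (-1.02 ± 0.26) fell. Among 17 AP-1 and immediate early genes 7 rose and none fell, with Junb up by 1.58 ± 0.17.

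Chemokine genes were found in both directions. Of 20 tested genes 7 rose and 4 fell, with a median of 1.79, and 12 rose with dispersions fitted without robustness. Cxcl5, which attracts neutrophils through CXCR2, had 1 count in the controls and stood at 11, 12.3 and 48.6 CPM with IL-23 DNA, a ratio of 371 with an exact 95% interval of 65.9 to 14700. Ccl4 rose by 3.58 ± 0.52 and Cxcl16 by 1.57 ± 0.20. Cxcl1, Cxcl2 and Ccl20 were not called, at adjusted p of 0.0553, 0.11 and 0.927. For Cxcl2 the controls alone spread from 4.7 to 57.2 CPM. Among the chemokines that fell, Ccl27a of keratinocytes went from 34.1, 35.8 and 37.6 to 9.4, 11.2 and 3.64 CPM (-2.09 ± 0.35, adjusted p = 0.000539), and Cx3cl1 and Cxcl14 fell by 1.82 and 0.76 on the log2 scale.

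Antimicrobial genes rose in 14 of 16 cases and fell in none, with a median of 3.26. Defb3 and Defb4, mouse beta-defensins, were almost silent in the controls, and Defb4 reached 16, 7.88 and 13.9 CPM (5.34 ± 0.57, adjusted p = 4.68e-06). Lipocalin 2 (Lcn2), which captures bacterial siderophores, went from 4.35, 2.57 and 0.773 to 36.2, 36.8 and 31.7 CPM (3.78 ± 0.48, adjusted p = 0.000129). The acute phase gene Saa1 rose by 5.45 ± 0.57. Defb1 and Defb6, which the controls already expressed, rose by 3.02 ± 0.30 and 2.48 ± 0.24. Defb8, outside this list, went from 17.6, 28.8 and 34 to 0, 1.53 and 0.331 CPM (-5.28 ± 0.56, adjusted p = 1.27e-05), the opposite of its relatives.

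**Figure D4:**
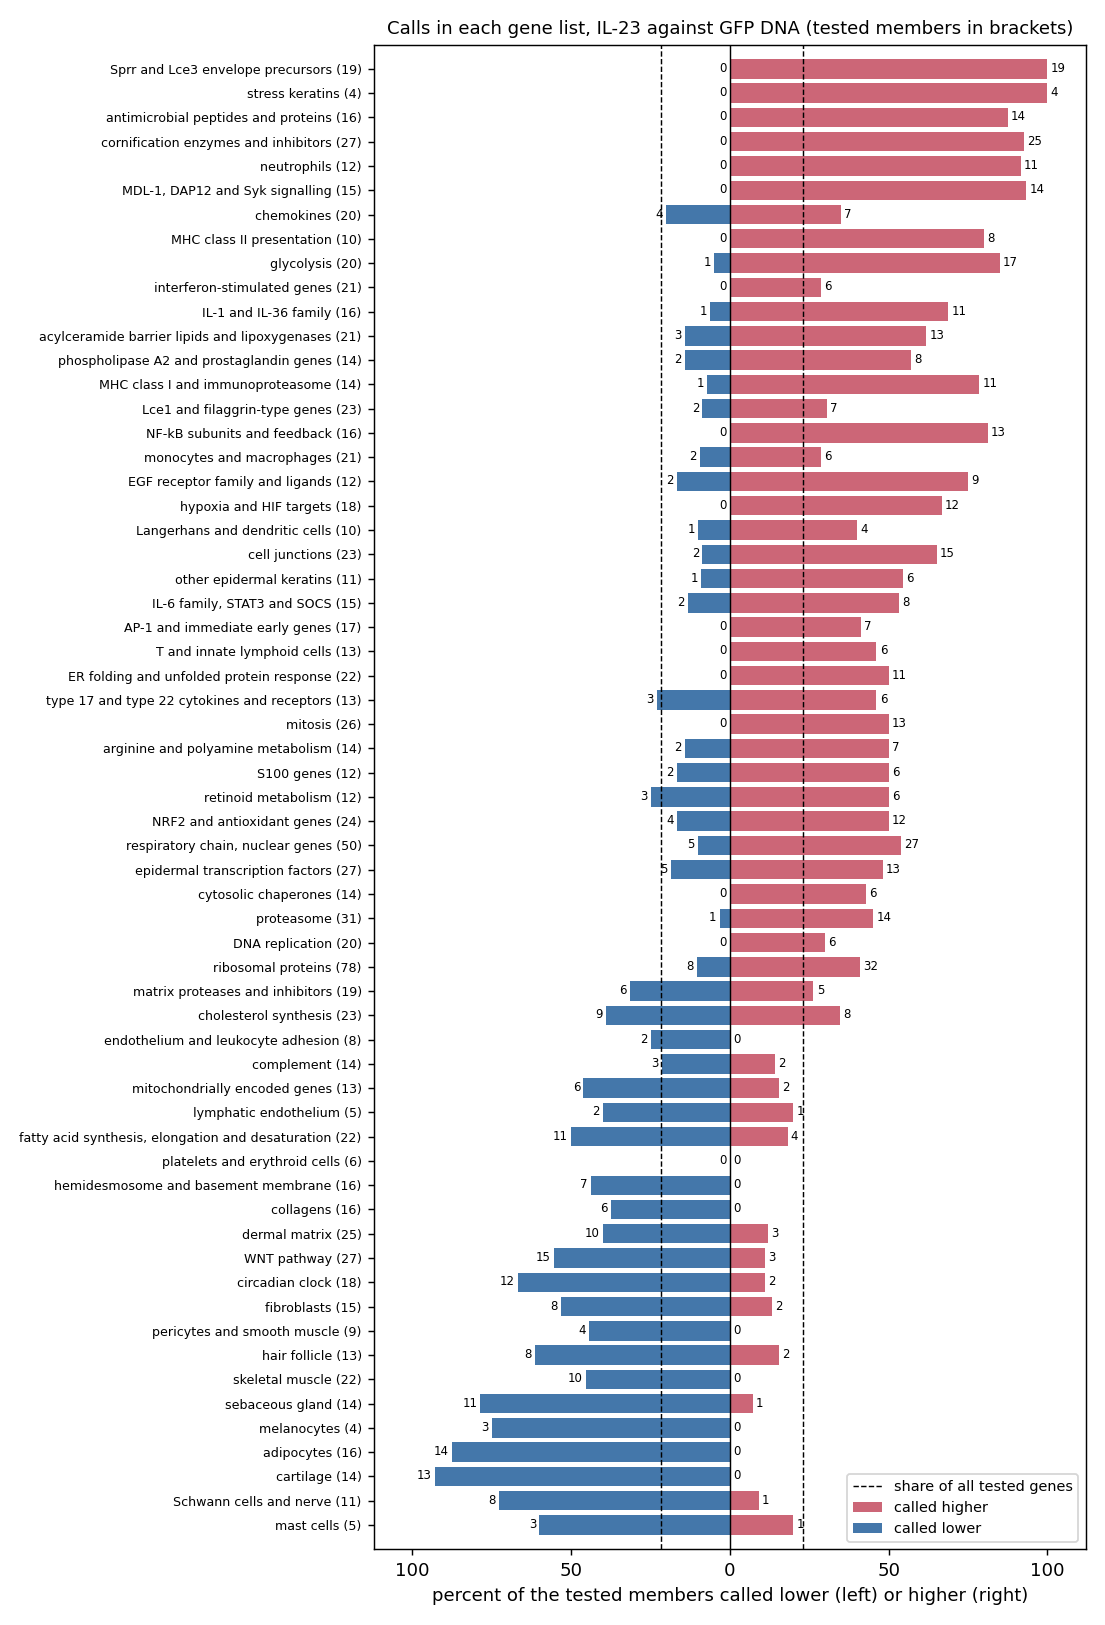
Percent of the tested members of each gene list that were called lower (left) or higher (right), with the counts at the bar ends, lists ordered by median log2 fold change, and dashed lines at the shares of all tested genes (21.7% lower, 22.9% higher). Envelope precursors (19 of 19), stress keratins (4 of 4), cornification enzymes (25 of 27) and MDL-1, DAP12 and Syk genes (14 of 15) lie near the top. Mast cell genes (3 of 5), Schwann cell and nerve genes (8 of 11), cartilage genes (13 of 14) and adipocyte genes (14 of 16) lie near the bottom. Lists with under 3 tested members are left out.

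In whole tissue a change in a marker can come from more or fewer cells of a type or from more or less RNA per cell, and these cannot be told apart here. Neutrophil markers rose in 11 of 12 and fell in none, with a median of 2.54. The chemokine receptor Cxcr2 went from 2.96, 2.57 and 2.78 to 35.1, 33.7 and 42 CPM (3.72 ± 0.26, adjusted p = 1.95e-07), and Retnlg rose by 3.36 ± 0.61. Summed over the whole list, the markers stood at 87.9, 169 and 169 CPM and then at 447, 470 and 566 CPM, and GFP library 1 was the lowest. The neutrophil granule genes Mpo, Elane and Ltf and the surface gene Ly6g were too low to be tested. S100a8 and S100a9 are also neutrophil genes; their share in these levels was not tested.

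The list of MDL-1, DAP12 and Syk genes rose in 14 of 15 cases in these wild-type ears, with a median of 1.98. It holds MDL-1, which the series studies by deletion, and also other myeloid receptors, so it is no readout of MDL-1 alone. Clec5a, which codes for MDL-1, was low and went from 0.348, 1.29 and 1.55 to 3.9, 4.6 and 3.64 CPM (1.90 ± 0.49, adjusted p = 0.00554). Its adaptor Tyrobp (DAP12) went from 2.26, 5.69 and 5.41 to 11.7, 16.9 and 14.9 CPM (1.69 ± 0.30, adjusted p = 0.000368). The highest of the list was the beta-glucan receptor Clec7a, from 6.79, 12.9 and 9.9 to 110, 122 and 138 CPM (3.64 ± 0.29, adjusted p = 2.66e-06). Syk rose by 1.38 ± 0.35, and Bcl10 was not called. Members such as Trem1, Clec4d and Clec4e are also in the neutrophil list or expressed by the same cells.

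Monocyte and macrophage markers gave a mixed picture, with 6 of 21 higher and 2 lower. Cd300lf, a myeloid inhibitory receptor, rose by 4.42 ± 0.41, and Itgam by 1.80 ± 0.38. The resident macrophage genes Mertk (-1.53 ± 0.26) and Cd163 (-1.33 ± 0.41) fell. Lyz2, C1qb and Ccr2 were not called, and the sum of the list, 1422 to 2047 CPM with GFP DNA and 1510 to 1801 CPM with IL-23 DNA, overlapped. MHC class II genes rose in 8 of 10, for example H2-Eb1 from 24.7, 32.9 and 15.2 to 81.6, 113 and 102 CPM (2.03 ± 0.27, adjusted p = 0.000103). Langerhans and dendritic cell markers rose in 4 of 10 and fell in 1. Xcr1 rose most (2.74 ± 0.64), but from only 3, 0 and 5 counts to 16, 14 and 8 counts. Mgl2 fell (-0.98 ± 0.36, adjusted p = 0.0352), a call lost without GFP library 1 or IL-23 library 1 or 2. The Langerhans gene Cd207 was not called (1.09, adjusted p = 0.118).

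Lymphoid markers rose in 6 of 13 and fell in none, with a median of 0.62. The costimulator Icos went from 1.39, 1.47 and 1.24 to 8.02, 20.4 and 21.5 CPM (3.57 ± 0.40, adjusted p = 6.8e-06), and Il2ra rose by 4.14 ± 0.78. The receptor constant gene Trac rose by 3.22 ± 0.66 and Trbc2 by 1.46 ± 0.22, whereas Cd3e, Trdc and Tcrg-C1 were not called. Trac and Trbc2 code for alpha-beta receptors, and Trdc and Tcrg-C1 for gamma-delta receptors, and a difference between the kinds was not tested. No B cell gene had enough counts to be tested.

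Interferon-linked genes varied between the IL-23 libraries. Of 21 interferon-stimulated genes 6 rose and none fell, and 12 rose in the fit of the 6 wild-type libraries alone. Of 14 MHC class I and immunoproteasome genes 11 rose and 1 fell, but between 4 and 7 rose without GFP library 1, 2 or 3 or IL-23 library 2 or 3. The class I gene H2-Q7 stood at 12, 11.2 and 7.58 and then at 44.7, 215 and 205 CPM (3.92 ± 1.16, adjusted p = 0.0346), which was lost in 5 of the 6 fits that left out 1 library (adjusted p 0.0845 to 0.112). Cxcl9, an interferon gamma target, went from 2.61, 6.98 and 1.08 to 13.8, 90.4 and 67.5 CPM (4.04 ± 1.72) and was not called (adjusted p = 0.105). IL-23 library 1 was the lowest of its group in both genes. The eosinophil ribonuclease gene Ear1 was near the limit, at 0.522, 0.735 and 0 and then 0, 3.94 and 5.95 CPM. IL-23 library 1 and GFP library 3 thus had no count of Ear1. The eosinophil genes Prg2 and Epx had no count in any library.

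Of the 14 mast cell genes 5 could be tested, of which 3 fell and 1 rose. Carboxypeptidase Cpa3 went from 7.31, 3.31 and 4.49 to 0.229, 0.438 and 0.661 CPM (-3.50 ± 0.63, adjusted p = 0.000349), Mcpt4 fell by 3.33 and chymase Cma1 by 2.30 on the log2 scale. The receptor gene Kit was not called (-0.95, adjusted p = 0.189). Hdc, which makes histamine and is shared with neutrophils, went the other way, from 5.74, 16.5 and 20.7 to 122, 121 and 152 CPM (3.19 ± 0.60, adjusted p = 0.00493). It sets the sum of the mast cell list, which is therefore higher in the IL-23 libraries.

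Glycolysis genes were mostly higher. Of 20 such genes 17 rose and 1 fell, with a median of 1.56. Ldha, which makes lactate, went from 737, 982 and 677 to 3780, 4004 and 5504 CPM (2.47 ± 0.22, adjusted p = 3.59e-06). The lactate exporter Slc16a3 (MCT4) went from 2.44, 3.67 and 3.09 to 44.2, 39 and 51.6 CPM (3.86 ± 0.39, adjusted p = 1.5e-05), and the glucose transporter Slc2a1 rose by 1.92 ± 0.18. Pfkm, the muscle form of phosphofructokinase, was the gene that fell (-1.44 ± 0.24), and Gapdh was not called (0.35, adjusted p = 0.173). Of 18 hypoxia genes 12 rose and none fell. Hif1a, the oxygen-regulated factor that controls many of them, went from 175, 183 and 172 to 781, 849 and 1099 CPM (2.36 ± 0.22, adjusted p = 6.14e-06), and Egln3, which marks it for destruction and is its target, from 11, 9.55 and 11.8 to 132, 176 and 179 CPM (3.91 ± 0.22, adjusted p = 6.02e-08). Other targets of this factor, among them Adm, Angptl4 and P4ha1, were not called.

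For genes of ribosomes, proteasomes and the respiratory chain the direction of the median depends on scaling. Of 78 ribosomal protein genes 32 rose and 8 fell with a median of 0.24, but 7 rose and 25 fell with a median of -0.16 when libraries were scaled by their totals, and without GFP library 1, GFP library 3 or IL-23 library 2 between 17 and 20 rose. As a share of all counts they went from 7.49% ± 0.247 to 7.27% ± 0.36 (SD, n = 3, exact permutation p = 0.5). Of 50 nuclear genes of the respiratory chain 27 rose and 5 fell with a median of 0.40, against 9 and 14 with a median of -0.01 with library totals. Without GFP library 1 or 3 or any 1 of the IL-23 libraries 1 of them fell. Atp5o, a subunit of ATP synthase, went from 280, 352 and 288 to 731, 939 and 1082 CPM (1.58 ± 0.17). Of 31 proteasome genes 14 rose and 1 fell with a median of 0.27, against 4 and 8 with a median of -0.13 with library totals. The protein genes of the mitochondrial genome fell in share of all counts, from 6.71% ± 0.607 to 5.17% ± 0.107 (SD, n = 3, exact permutation p = 0.1), but their summed TMM-scaled levels overlapped between the groups. The mitochondrial ribosomal RNAs mt-Rnr1 and mt-Rnr2 had the largest losses in CPM of any called gene. For mt-Rnr2 (-0.47 ± 0.14, adjusted p = 0.0102) the call was lost without GFP library 1 (0.0525) or IL-23 library 2 (0.0582). The level of mt-Rnr1 went from 29977, 27331 and 30053 to 17611, 15413 and 20136 CPM (-0.72 ± 0.13, adjusted p = 0.000368).

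Stress and repair pathways were also higher in part. Genes of protein folding in the endoplasmic reticulum rose in 11 of 22 and fell in none, led by the oxidase Ero1l (2.05 ± 0.21) and the factor Atf4 (1.73 ± 0.17). The chaperone Hspa5 went from 455, 496 and 415 to 952, 943 and 1064 CPM (1.12 ± 0.14, adjusted p = 1.81e-05). Antioxidant genes rose in 12 and fell in 4 of 24. The cystine importer Slc7a11 went from 8.7, 5.69 and 5.41 to 194, 190 and 295 CPM (5.09 ± 0.34, adjusted p = 2.4e-06), whereas catalase (Cat) fell by 1.44 and Sod1 by 0.93 on the log2 scale. Nqo1, the usual readout of the antioxidant factor NRF2, was not called (0.02, adjusted p = 0.972).

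Lipid genes moved in both directions. For the acylceramides of the skin barrier 13 of 21 genes rose and 3 fell, with a median of 1.44. Cers3, which makes ceramides with very long chains, went from 9.92, 20.4 and 15.9 to 142, 162 and 226 CPM (3.51 ± 0.24, adjusted p = 2.8e-07), and the lipoxygenase Alox12b rose by 2.96 ± 0.23. Cers4 fell (-1.32 ± 0.24). For fatty acid synthesis, elongation and desaturation 4 of 22 rose and 11 fell, with a median of -0.54. Scd1, the main desaturase of the sebaceous gland, went from 3045, 3816 and 3844 to 1697, 1593 and 950 CPM (-1.34 ± 0.20, adjusted p = 0.000125), and Elovl5 fell by 1.78 on the log2 scale. Cholesterol synthesis genes rose in 8 and fell in 9 of 23, with Sc5d up (1.70 ± 0.20). Cytosolic phospholipases of the epidermis rose, Pla2g4d from 0.87, 0.735 and 0.309 to 21.3, 30.9 and 57.9 CPM (5.80 ± 0.53, adjusted p = 5.87e-06) and Pla2g4e by 3.93 ± 0.25, together with prostaglandin synthase Ptges (2.5 ± 0.19).

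Appendages of the skin lost transcripts. Sebaceous gland genes fell in 11 of 14 and rose in 1, with a median of -1.36. Fa2h, which makes hydroxylated lipids of sebum, went from 1240, 1025 and 1407 to 453, 344 and 182 CPM (-1.91 ± 0.28, adjusted p = 0.000331). Hair follicle genes fell in 8 of 13 and rose in 2, among them the stem cell receptors Lgr5 (-1.87 ± 0.49) and Lgr6 (-1.27 ± 0.24). WNT pathway genes, which control hair growth, fell in 15 of 27 and rose in 3, with a median of -0.86. Axin2, a direct target of the pathway, went from 21.2, 15.1 and 27.7 to 5.73, 5.91 and 3.97 CPM (-2.01 ± 0.27, adjusted p = 3.29e-05). The ligand Wnt10b (-4.24 ± 0.63) and the amplifier Rspo3 (-3.96 ± 0.51) fell, and so did the inhibitor Wif1 (-2.28 ± 0.23). Ligands, amplifiers, receptors and inhibitors all had members that fell. Porcn, which adds the lipid to WNT proteins, rose (1.67 ± 0.26).

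Genes of fat, cartilage and nerve below the epidermis were mostly lower, and those of muscle in part. Adipocyte genes fell in 14 of 16 with none higher, with a median of -1.45; adiponectin (Adipoq) went from 28.5, 42.4 and 66.5 to 11.2, 14.9 and 8.93 CPM (-1.95 ± 0.30, adjusted p = 0.000214). Cartilage genes fell in 13 of 14, with a median of -1.77, and aggrecan (Acan) went from 27.5, 14.3 and 32.6 to 5.27, 4.6 and 1.32 CPM (-2.66 ± 0.43, adjusted p = 0.000422). Schwann cell and nerve genes fell in 8 of 11 and rose in 1, with a median of -2.00. Muscle genes fell in 10 of 22, or in 6 without IL-23 library 1, with titin (Ttn) down by 1.54 on the log2 scale. Summed over the whole list, adipocyte genes gave 1533 to 2322 CPM with GFP and 462 to 913 CPM with IL-23 DNA, cartilage genes 1000 to 1152 and 298 to 487 CPM, and muscle genes 2333 to 4189 and 1329 to 1519 CPM. None of these sums overlapped between the groups. The share of tissue layers in each ear piece was not measured, and its part in these changes was not tested.

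Fibroblast and matrix genes were lower in part. Of 15 fibroblast genes 8 fell and 2 rose, with 5 lower without GFP library 1 or IL-23 library 1. Decorin (Dcn), a collagen-binding proteoglycan, went from 253, 217 and 209 to 64.4, 90.2 and 91.3 CPM (-1.47 ± 0.31, adjusted p = 0.00348). Of 16 collagens 6 fell and none rose, and 2 or 3 fell without GFP library 3, IL-23 library 2 or IL-23 library 3. Col8a1, of vessel and basement membranes, fell by 2.53 on the log2 scale. Col1a1 (0.28, adjusted p = 0.796) and Col3a1 (-0.39, adjusted p = 0.609) were not called. Tenascin C (Tnc), a matrix protein of wounds, rose from 14.8, 18.9 and 16.6 to 80.9, 47.5 and 75.7 CPM (2.02 ± 0.21, adjusted p = 3.89e-06). Matrix proteases and their inhibitors moved in both directions. Of 19 genes 5 rose and 6 fell, with a median of 0.14 that becomes -0.25 when libraries are scaled by their totals. The protease Mmp3 (-1.50 ± 0.24) and the inhibitor Timp3 (-2.32 ± 0.32) fell, while Plaur and Adam8 rose by 3.22 and 1.19 on the log2 scale. Ccn2, a target of mechanical and TGF-beta signals, went from 60, 10.5 and 51.4 to 4.81, 1.53 and 0.661 CPM (-4.03 ± 0.96, adjusted p = 0.0139), which did not pass with limma voom (adjusted p = 0.11) or without IL-23 library 2 or 3 (0.0558 and 0.0536).

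**Figure D5:**
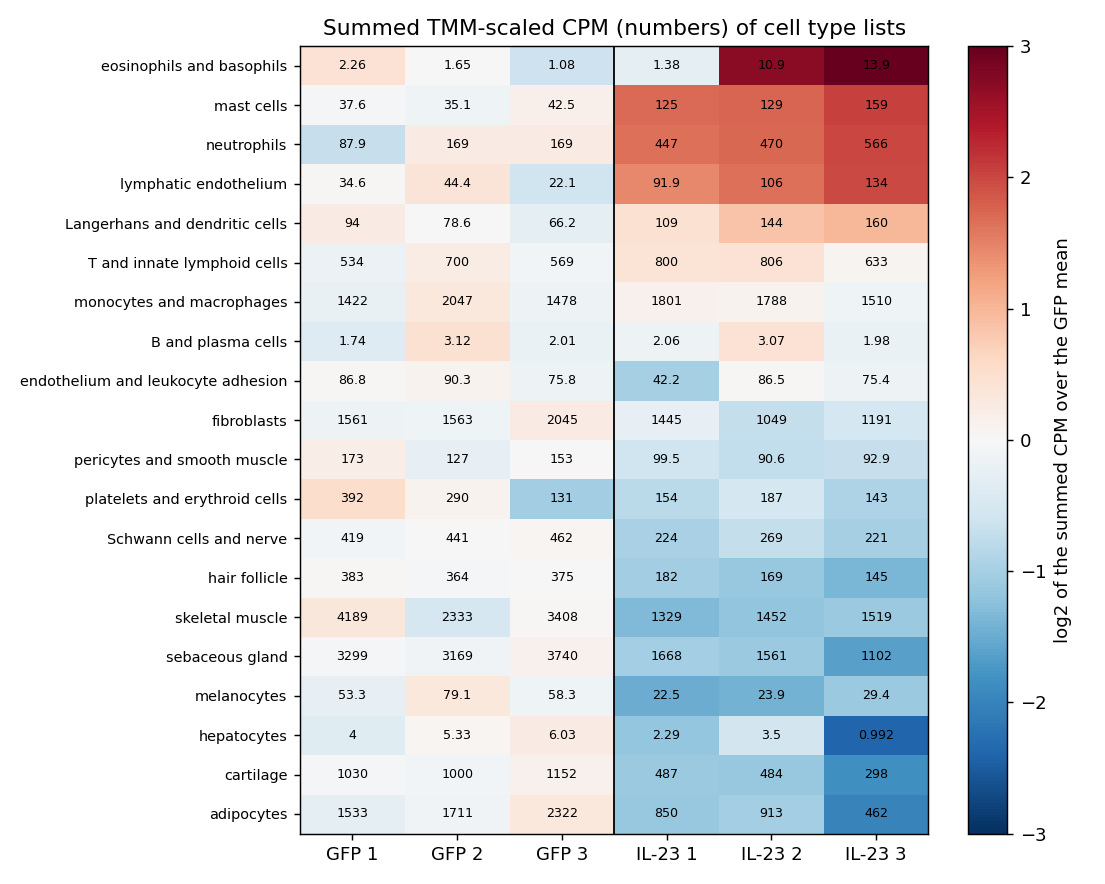
Summed CPM (numbers) of all genes of each cell type list in the 6 wild-type libraries, coloured by the log2 ratio to the mean of the GFP libraries. Neutrophil genes rise from 87.9 to 169 CPM to 447 to 566 CPM, and the rows from hair follicle down are lower in every IL-23 library than in any GFP library. The mast cell row is set by Hdc and the lymphatic row by Pdpn, which keratinocytes also express.

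The remaining lists of the dermis gave smaller numbers. Pericyte and smooth muscle genes fell in 4 of 9, or in 2 without GFP library 1, with the proteoglycan gene Cspg4 at 17.4, 8.81 and 11.1 and then 2.52, 1.53 and 0.992 CPM (-2.82 ± 0.42, adjusted p = 8.3e-05). Endothelial genes fell in 2 of 8, and Pecam1 and Vcam1 were not called. Melanocyte genes fell in 3 of 4, among them the pigment enzyme Dct (-1.95 ± 0.41). Of 14 complement genes 2 rose and 3 fell. The falls included Cd59a, which shields cells from complement, from 83.9, 89.2 and 95.6 to 17, 13.1 and 9.92 CPM (-2.73 ± 0.24, adjusted p = 1.42e-06). Blood cell genes, such as those of hemoglobin, passed the test in 0 of 6 cases.

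Retinoid and polyamine genes each had members in both directions. Of 12 retinoid genes 6 rose and 3 fell. Dhrs9, a retinol dehydrogenase, went from 1.04, 2.2 and 0.464 to 18.1, 26.3 and 33.4 CPM (4.39 ± 0.40, adjusted p = 2.04e-06), and the serum carrier gene Rbp4 fell by 2.92 on the log2 scale. Of 14 arginine and polyamine genes 7 rose and 2 fell. Smox, which oxidises spermine, went from 7.13, 5.88 and 3.87 to 47.9, 55.2 and 60.5 CPM (3.28 ± 0.23, adjusted p = 1.95e-07), and arginase Arg1 rose by 2.80 ± 0.49 (adjusted p = 0.00193). IL-23 library 3 was the highest of the group in Dhrs9 and Smox.

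Clock genes were mostly lower. Of 18 tested 12 fell and 2 rose, with a median of -0.89. The output factor Hlf went from 263, 289 and 295 to 77.5, 41.8 and 17.2 CPM (-2.61 ± 0.53, adjusted p = 0.00636), and the repressors Per2 and Bhlhe41 fell by 2.53 and 3.46 on the log2 scale. Bhlhe40, close in function to Bhlhe41, rose (1.61 ± 0.25), as did Nfil3 (1.96 ± 0.34). Arntl, the core activator, was not called (-0.10, adjusted p = 0.768), nor was Per1. The hour of sampling is not stated in the sources used here.

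Some of the most abundant genes lay close to 0. The 5 with a fold change nearest to 0 were Tpt1, Rpl6, Klf4, Ly6d and Rps19. Tpt1, a growth-related protein of all cells, stood at 2511, 2796 and 2830 and at 2726, 2681 and 2687 CPM (-0.01 ± 0.11, adjusted p = 0.962). Klf4, which keratinocytes need for the barrier, stood at 561, 978 and 858 and at 936, 685 and 814 CPM (0.02 ± 0.20, adjusted p = 0.937). With library totals alone Tpt1 lay at -0.41 and Rpl6 and Rps19 at -0.43, and all 3 were called lower.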

How the data were processed

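RNA from ears was read by 3' tag RNA-Seq. The authors' deposited tables hold raw counts per mouse Ensembl gene; per the submitters' processing notes STAR 2.7.0a, featureCounts and edgeR were used. The build named there, GRCh38.p6, is a human build, so the alignment build is uncertain, and the settings for strand and multi-mapping and the annotation are not stated there. The deposited edgeR results were left out. Tables were joined into 9 libraries (0 values differed between tables). Symbols and positions came from GENCODE M21 (GRCm38), and 29 IDs had no symbol.

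Genes were kept by filterByExpr (minimum count 10, minimum total 15). All 9 libraries entered 1 edgeR fit with a mean for each of 3 groups (version 4.0.16, R 4.3.3, TMM, robust quasi-likelihood F-test, 6 residual degrees of freedom). Standard errors came from the F statistic. Shares of counts were compared by exact permutation. On simulated counts for this comparison (13307 genes) 69% of 2-fold and 97% of 4-fold changes were recovered, with 3.49% false calls. Only a small set of genes above the lowest levels was changed there, in random directions. These rates therefore do not cover a comparison in which 44.7% of genes were called and the scaling matters. Libraries of a group differed by more than sampling noise (chi-square per gene at least 4.6).

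The members and the 64 gene lists were chosen with earlier results of these data known. Genes were named by rule: the 15 largest rises and falls at 20 CPM or more with groups apart, the 10 largest gains and losses in CPM, up to 3 rises and falls of each list at 5 CPM or more, and the 5 most stable abundant genes; other list members were added after their values were seen. Alternatives were DESeq2 1.42.0, limma voom (3.58.1), other scalings and filters, a replicate block and leaving out each library.

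Some genes of these lists are not reported here by name.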

Additional observations from a re-analysis of the deposited data

How the results depend on the processing

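The number of genes called was 6169, and between 4622 (without GFP library 3) and 6352 (without GFP library 2) when 1 library was left out. It was 5787 with DESeq2, 6033 with limma voom, 5228 of 10345 genes at a minimum count of 30, 6460 without a filter, 6348 with upper-quartile scaling and 6039 from the 6 wild-type libraries alone. No call shared with the main fit had the opposite sign in any of these. Upper-quartile scaling shifted the median gene by -0.15 on the log2 scale, and 38.9% of its calls were higher, against 51.3%. Scaling by library totals without TMM, an alternative chosen after seeing the data, gave 1627 genes higher and 5536 lower, in place of 3167 and 3002, so 22.7% of calls were higher. With it Ly6d changed from 0.02 to -0.38 and mt-Nd4 from 0.36 to -0.05, and the medians of 8 lists changed sign: epidermal transcription factors, DNA replication, chaperones, ribosomal proteins, proteasome, nuclear respiratory chain, cholesterol synthesis and matrix proteases. Measured outside the mitochondrial genes, the share of ribosomal proteins fell by 0.732 percentage points rather than 0.216.

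The labels do not say whether replicate numbers pair the libraries. Deviations of same-numbered libraries from their group means correlated at 0.0369, 0.0702 and -0.0522. For GFP libraries 1, 2 and 3 the closest IL-23 library was number 1, 2 and 1. With 3 libraries a group these values cannot decide whether the libraries are paired. With a replicate block 6257 genes were called. Of the 282 single results for named genes, 44 genes lost their call under at least 1 alternative. Depth limits the cytokine genes, since 3 counts correspond to 0.535 to 0.794 CPM.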
